A study of Mus musculus with 11 samples.

Results

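The 10 genes described here encode the enzymes and carriers that bring long-chain fatty acids into the mitochondrion and shorten them there: Cpt1a, Slc25a20, Cpt2, Acadvl, Acadl, Acadm, Acads, Hadha, Hadhb and Hadh. They were taken from the array through the RefSeq accession of each probe, which gave 11 of 41174 probes for 10 of 17427 genes with a symbol. Cpt1a had 2 probes and each other gene had 1. The samples were cells positive for the fluorescent protein eGFP, sorted by flow cytometry from dissociated adrenal glands of mouse embryos at E17.5 to E18.5 (embryonic days) and labelled adrenocortical. One group was 4 Star-/- mice, which lack the steroidogenic acute regulatory protein, the carrier that delivers cholesterol to the inner mitochondrial membrane for steroid synthesis, and all 4 are labelled male. The other was 7 Star+/+ mice, of which WT1, WT2 and WT7 are labelled male and WT3 to WT6 female. RNA of each mouse was amplified and hybridised to its own single-colour Agilent array, and the promoter of the reporter is not named in the labels.

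Mitochondrial β-oxidation removes carbon units from a fatty acyl chain in a repeated cycle of dehydrogenation, hydration, a second dehydrogenation and cleavage, and feeds electrons and acetyl-CoA to respiration. Long chains need the carnitine shuttle to cross the mitochondrial membranes, and the acyl-CoA dehydrogenases that open each cycle differ in the chain length they prefer. Adrenocortical cells store fatty acids as cholesteryl esters and triglycerides in lipid droplets, and their mitochondria also hold the first enzyme of steroid synthesis.

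KO1, KO2, WT1 and WT2 shared slide 1, KO3, KO4 and WT3 shared slide 2, and WT4 to WT7 lay on slide 3, which held no knockout array. A level is given as log2 of the background-subtracted signal minus the array's 75th percentile, so that 0 is the brightness of the probe at that percentile. Levels of different probes are not comparable with each other. The 75th percentile itself ran between 190 and 706 signal units on the knockout arrays and between 115 on WT3 and 463 on the wild-type arrays, and 19066 to 26408 probes per array were well above background. WT3 was the highest or the lowest of the 7 wild-type arrays for 48.8% of the genes tested, against 19.5% to 31.6% for each other wild-type array, and it is the only wild-type array of slide 2. WT3 is labelled female and KO3 and KO4 male, so sex and genotype cannot be told apart on that slide. The targeted gene, Star, averaged 2.37 ± 0.73 on knockout arrays (SD, n = 4) and 5.75 ± 1.82 on wild-type arrays (SD, n = 7), a fitted difference of −4.70 ± 0.93 (SE) with an adjusted p of 0.0559, and the groups overlapped. These values are from its brightest probe, and fitting every Star probe separately gave a median difference of −5.04. Where the probes lie relative to the deleted part of the gene is not given in the labels.

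The 250 bases before the start of transcription are printed for 3 of the 10 genes (RefSeq, build GRCm38.p6, 5′ to 3′ on the strand of the gene): Acadm and Acadl, which had the 2 lowest differences between genotypes, and Hadhb, which lies head to head with Hadha, so that their windows share 228 bases. Capitals mark matches on either strand to AGGTCA, the core element of many nuclear receptor sites, to the CCAAT box or to the GC box GGGCGG. The Acadm window lies at chr3:153944644-153944893, minus strand, the Acadl window at chr1:66863310-66863559, minus strand, and the Hadhb window at chr5:30155003-30155252, plus strand.
Acadm: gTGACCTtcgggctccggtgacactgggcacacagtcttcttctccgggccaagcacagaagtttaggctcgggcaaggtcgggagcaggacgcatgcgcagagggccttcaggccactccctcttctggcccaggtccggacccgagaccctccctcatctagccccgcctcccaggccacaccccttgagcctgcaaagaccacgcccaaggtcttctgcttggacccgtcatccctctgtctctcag
Acadl: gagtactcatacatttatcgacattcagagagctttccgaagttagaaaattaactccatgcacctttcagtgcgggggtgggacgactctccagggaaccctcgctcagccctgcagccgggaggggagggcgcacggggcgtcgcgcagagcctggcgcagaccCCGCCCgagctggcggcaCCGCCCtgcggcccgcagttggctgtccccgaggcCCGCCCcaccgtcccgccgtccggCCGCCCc
Hadhb: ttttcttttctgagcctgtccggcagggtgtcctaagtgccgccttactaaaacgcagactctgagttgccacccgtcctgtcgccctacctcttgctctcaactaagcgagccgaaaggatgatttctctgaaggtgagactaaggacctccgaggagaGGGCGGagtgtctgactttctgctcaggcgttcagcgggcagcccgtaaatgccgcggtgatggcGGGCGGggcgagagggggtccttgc

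All 10 genes had a window of 300 bases in the table, 250 before and 50 after the start. Both strands were searched, and the same motifs were counted in all 32851 windows. The core element AGGTCA stood in 3 of the 10 windows, those of Acadm, Acadvl and Cpt1a, and in 16.3% of all windows. In Acadm it is the reverse complement TGACCT, at positions −249 to −244 from the start, in capitals at the left end of the sequence above. GGGCGG stood in 8 of the 10 windows and in 35.7% of all, and CCAAT in 2 of the 10 and in 37.4% of all. The GGGCGG match of Hadha and that of Hadhb at −90 to −85 are the same site, in the stretch that their windows share. No match was found in the 10 windows to CAAGGTCA, the extended element bound by NR5A1 and the estrogen-related receptors (1.56% of all windows), to a direct repeat of the core element with a 1-base spacer (DR1), bound by PPAR with RXR (0.0396%), to the palindromic NRF1 element (0.971%) or to TGACGTCA, the cyclic AMP response element (1.79%). The first 2 of these motifs contain AGGTCA. Such matches are a description of letters and say nothing of binding.

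None of the 10 enzymes passed the test between Star-/- and Star+/+ cells. The limma fit with slide as a term called 0 of 10 at an adjusted p under 0.05, where it called 0.834% of the 20739 genes tested, 0.231% as lower and 0.603% as higher. At an unadjusted p under 0.05, 3 of the 10 were lower, Acadm, Acadl and Cpt2, where 10.1% of all genes were, and 0 were higher, where 8.39% were. Without WT3, and likewise with no slide term, 0 of the 10 had an unadjusted p under 0.05. Of the 20739 genes tested, 1302 did without WT3 and 3428 with no slide term, in either direction. Because slide 3 holds no knockout array, it enters the fit only through the spread, and each difference comes from the 7 arrays of the other slides. In no gene were the 4 knockout arrays all below or all above the 7 wild-type arrays (3.24% and 4.12% of all genes). The median difference over the 10 was −0.33, beside −0.16 over all genes tested.

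**Figure D1:**
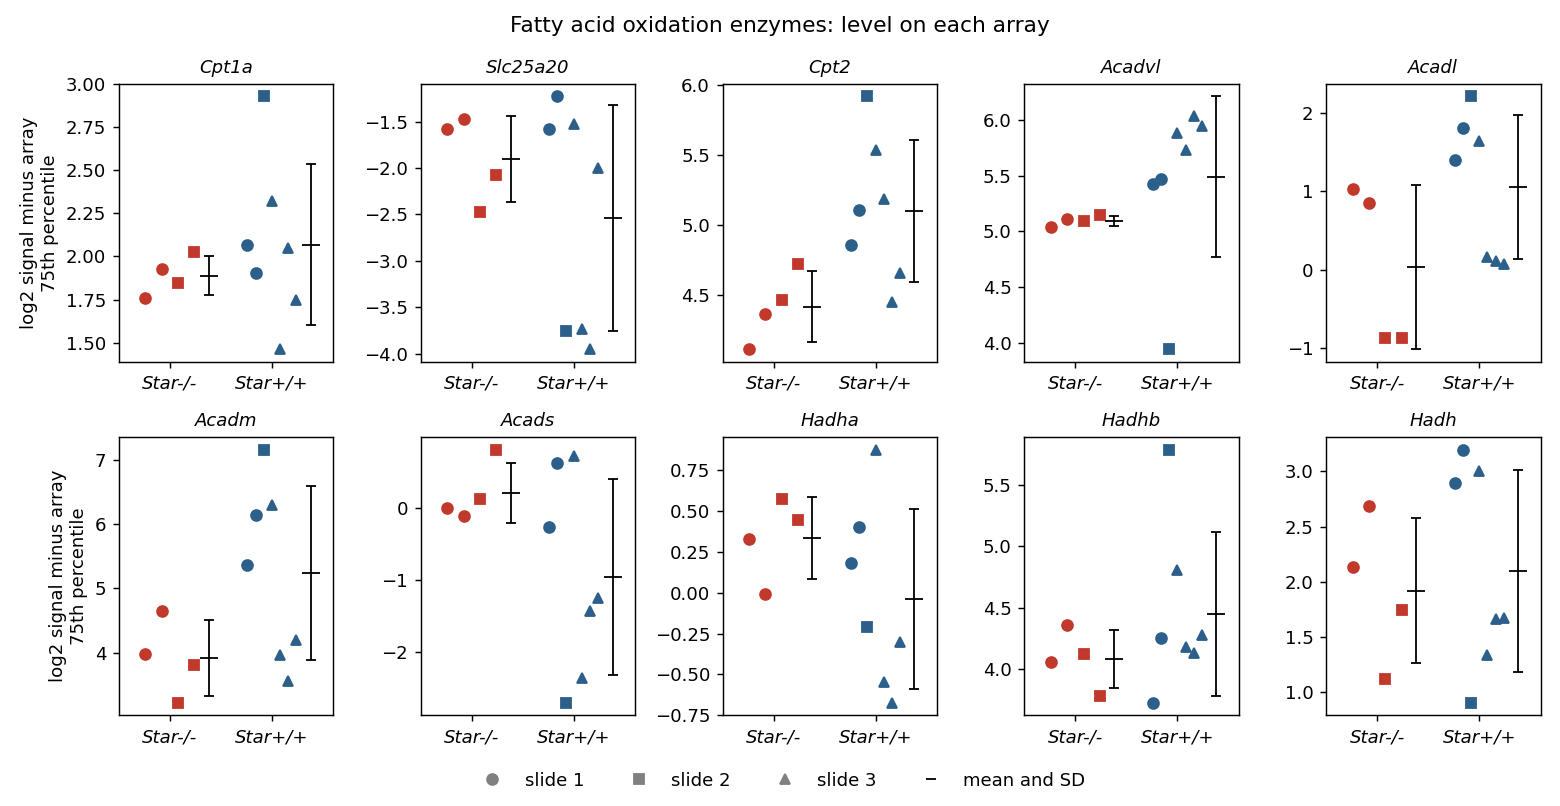
Level of each of the 10 genes (log2 signal minus the array's 75th percentile) on 4 Star-/- and 7 Star+/+ arrays, with symbols for the slide and bars for the mean and SD. The groups overlap in every panel, and for Acadm the 4 knockout arrays lie between 3.22 and 4.65 and the wild-type arrays between 3.57 and 7.16.

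The carnitine shuttle opens the pathway. Cpt1a, the isoform of carnitine palmitoyltransferase 1 typical of liver, joins long acyl chains to carnitine at the outer membrane and is held back by malonyl-CoA. On its brighter probe it stood at 1.76, 1.93, 1.84 and 2.03 on the 4 knockout arrays, and between 1.46 and 2.93, with a median of 2.05, on the wild-type arrays. The knockout values lay inside the wild-type range, whose top was WT3. The fitted difference was −0.48 ± 0.34 (adjusted p = 0.466). The other Cpt1a probe was dim, well above background on 2 of 4 knockout and 2 of 7 wild-type arrays, with a mean of −4.30 ± 0.92 in knockout and −4.90 ± 0.74 in wild-type cells (SD), and did not stand for the gene in the fit. Fitted on its own, among all probes, it differed by 0.17 ± 0.52 (adjusted p = 0.893). Its difference was −0.04 within slide 1 and 0.49 within slide 2, so the probes did not share a direction on slide 2, where the brighter one gave −0.99.

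Slc25a20, the carnitine-acylcarnitine carrier of the inner membrane, gave −1.58, −1.47, −2.47 and −2.08 in knockout cells and −3.95 to −1.23, with a median of −2.00, in wild-type cells. All 4 knockout arrays lay within that range. It was well above background on all 4 knockout arrays and 6 of 7 wild-type arrays, and the difference of 0.52 ± 0.64 (adjusted p = 0.694) is smaller than its error.

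Cpt2 rebuilds the acyl-CoA on the matrix side. Its levels were 4.11, 4.37, 4.46 and 4.72 on the knockout arrays and ran between 4.45 and 5.92, with a median of 5.10, on the wild-type arrays. WT1 at 4.85, WT2 at 5.10 and WT3 at 5.92 are the wild-type arrays on the slides that hold knockouts, and each was above all 4 knockout arrays, while WT6 and WT7 of slide 3 were not. The difference was −0.97 ± 0.36 (95% interval −1.78 to −0.17, unadjusted p = 0.0222, adjusted p = 0.206), with −0.74 within slide 1 and −1.33 within slide 2.

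The acyl-CoA dehydrogenases carry out the first step of each cycle, and they showed both the lowest and the highest of the 10 differences. Acadvl, which acts on very long chains at the inner membrane, was at 5.04, 5.11, 5.09 and 5.14 on the knockout arrays, with an SD of 0.043. It ran between 3.95 and 6.03, with a median of 5.73, on the wild-type arrays. The low value is WT3, and the other 6 wild-type arrays, from 5.42 up, all lay above the 4 knockout arrays. The fit, which takes the slide 2 difference from WT3, gave 0.24 ± 0.36 (adjusted p = 0.747), with −0.37 within slide 1 and 1.17 within slide 2. Without WT3 the fitted difference was −0.37.

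Acadl, the long-chain enzyme, was at 1.03 and 0.85 on the knockout arrays of slide 1 and at −0.87 on both of slide 2. The wild-type arrays gave 1.39 and 1.81 on slide 1, 2.21 on slide 2, and 1.63, 0.16, 0.11 and 0.07 on slide 3. Within slides 1 and 2 every knockout array was below every wild-type array, whereas 3 wild-type arrays of slide 3 lay inside the knockout range. The difference was −1.63 ± 0.57 (95% interval −2.90 to −0.35, unadjusted p = 0.0175, adjusted p = 0.188), with −0.66 within slide 1 and −3.08 within slide 2.

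Acadm, the medium-chain enzyme, had the lowest difference of the 10. It stood at 3.98 and 4.65 on the knockout arrays of slide 1 and at 3.22 and 3.82 on those of slide 2. The wild-type arrays gave 5.37 and 6.14 on slide 1, 7.16 on slide 2, and 6.29, 3.96, 3.57 and 4.20 on slide 3. As for Acadl, the knockout arrays were below the wild-type arrays of their own slide, and WT5, WT6 and WT7 lay among them. The fitted difference was −2.32 ± 0.71, or 4.98-fold lower in knockout cells (95% interval −3.90 to −0.73, unadjusted p = 0.0088, adjusted p = 0.146), with −1.44 within slide 1 and −3.64 within slide 2. Without WT3 it was −1.44, with an adjusted p of 0.933.

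Acads, the short-chain enzyme, was at 0.00, −0.11, 0.13 and 0.81 in knockout cells and between −2.71 and 0.73, with a median of −1.26, in wild-type cells. The knockout arrays lay in the upper part of the wild-type range or, for KO4, just above it, and the lowest wild-type array was WT3. The difference of 1.13 ± 0.84 (adjusted p = 0.489) was the highest of the 10, and it was −0.23 within slide 1 and 3.18 within slide 2.

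**Figure D2:**
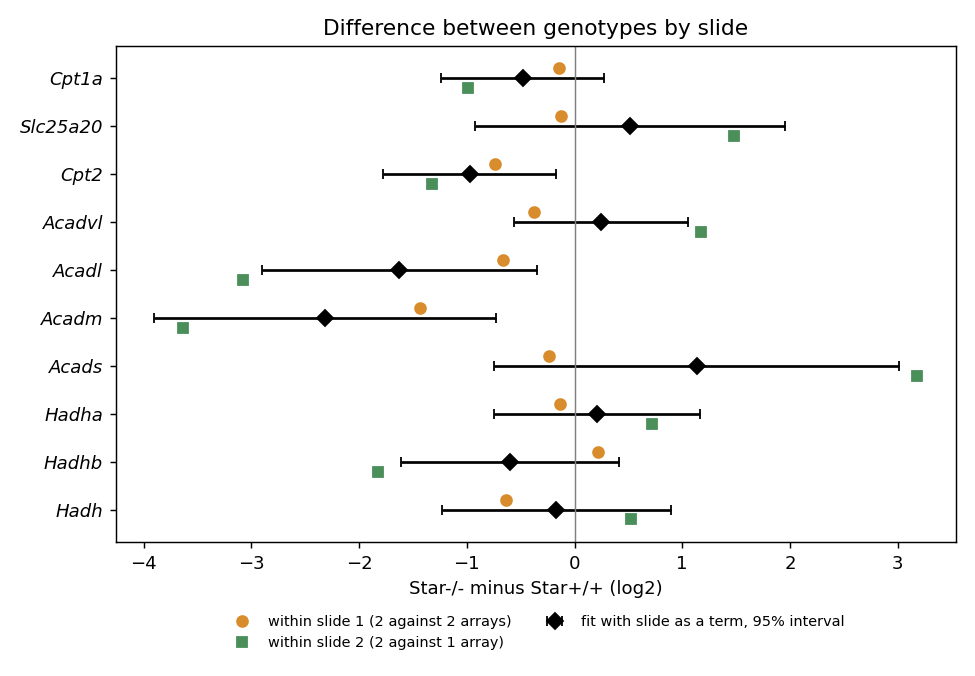
Difference Star-/- minus Star+/+ (log2) for the 10 genes: diamonds with bars give the fit with slide as a term and its 95% interval, circles the difference of means within slide 1 (2 against 2 arrays) and squares that within slide 2 (2 against 1 array). For Acads the slide values are −0.23 and 3.18 and for Hadhb 0.22 and −1.83, on opposite sides of 0, whereas for Acadm both are below 0.

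The trifunctional protein, made of Hadha and Hadhb, carries out the remaining steps on long chains at the inner membrane. Hadha, the subunit with the hydratase and the dehydrogenase, was at 0.33, −0.01, 0.57 and 0.45 in knockout cells and between −0.67 and 0.87, with a median of −0.21, in wild-type cells. The knockout arrays lay inside the wild-type range, and the difference was 0.21 ± 0.43 (adjusted p = 0.825). Hadhb, the thiolase subunit, was at 4.06, 4.36, 4.13 and 3.79 in knockout cells and between 3.73 and 5.78, with a median of 4.26, in wild-type cells. Here too the groups overlapped, with WT3 at the top and the other wild-type arrays at 4.81 or below. Its difference was −0.60 ± 0.45 (adjusted p = 0.497).

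Although the subunits share a start region, WT3 had the highest Hadhb level of the wild-type arrays and a Hadha level of −0.21, at their median. The slide 2 differences were 0.72 for Hadha and −1.83 for Hadhb, while on slide 1 they were −0.13 and 0.22. Hadh, the matrix dehydrogenase for medium and short chains, was at 2.13, 2.68, 1.12 and 1.74 in knockout cells and between 0.91 on WT3 and 3.19, with a median of 1.67, in wild-type cells. Its groups overlapped, and the difference was −0.17 ± 0.48 (adjusted p = 0.875), with −0.64 within slide 1 and 0.53 within slide 2.

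Slides differed in what they showed of the 10 genes. Within slide 1 the knockout mean was lower for 9 of 10, all but Hadhb, where 53.8% of all genes were lower. Within slide 2 it was lower for 5 of 10, where 58% of all genes were. Cpt1a, Cpt2, Acadl and Acadm were lower on both slides, 4 of 10 beside 37.5% of all genes, and 0 of 10 were higher on both, beside 25.7%. The median over the 10 was −0.30 within slide 1 and −0.23 within slide 2, but single differences spanned −1.44 to 0.22 on slide 1 and −3.64 to 3.18 on slide 2. WT3 was the highest wild-type array for 5 of the 10 (Cpt1a, Cpt2, Acadl, Acadm and Hadhb) and the lowest for 3 (Acadvl, Acads and Hadh).

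Acadm and Acadl were high on the same wild-type arrays, WT1 to WT4, and low on WT5 to WT7, a division that does not follow the slides, since WT4 shares slide 3 with the low arrays. The summed signal of 8 adrenocortical marker genes on the array (among them Nr5a1, Cyp11a1 and Scarb1), relative to the 75th percentile, showed the same division. It was 277, 504, 146 and 406 on KO1 to KO4, against 556, 1035, 1397 and 1104 on WT1 to WT4 and 146, 124 and 242 on WT5 to WT7. The largest parts of the WT3 sum came from Fdx1 at 9.50 and Hsd3b1 at 9.12. Not every marker followed the division on WT3. Nr5a1 was at −2.32 there and between −2.49 and −2.36 on WT5 to WT7. Cyp11a1 was at 2.11 on WT3 and between 1.62 and 3.47 on WT5 to WT7. Scarb1 at 5.59, Mc2r at 0.42 and Cyp21a1 at −3.45 on WT3 lay between WT5 to WT7 and WT1, WT2 and WT4. Fdxr, at 5.92 on WT3, lay within the range of WT1, WT2 and WT4. The sum for 10 chromaffin cell markers was 5.66 to 148 on knockout arrays, against 101 to 458 on WT1 to WT4 and 1493 to 1988 on WT5 to WT7. For 17 macrophage markers it was 1377 to 2279 in knockout cells and 59.3 to 387 in wild-type cells. In the fit 17 of 17 were higher, where 57% of all genes tested were lower. Of the 17, 5 were past the threshold as higher, where 0.603% of all genes were. Between 7 and 8 of the 8 adrenocortical markers were well above background on every array, and at least 13 of the 17 macrophage markers. For 8 capsule and stroma markers it was 690 to 1662 on knockout arrays, against 318 to 589 on WT1 to WT4 and 1353 to 2196 on WT5 to WT7, and for 5 Schwann cell precursor markers 17.6 to 32.3, against 4.46 to 13.8 and 38.1 to 60.7 on the same arrays. The part of these markers in the differences of Acadm, Acadl and the other 8 genes was not tested. In bulk RNA, fewer cells of a type and less RNA per cell cannot be told apart. Markers of brown fat, a tissue rich in these enzymes, summed to 3.53 to 5.32 in knockout and 2.97 to 7.49 in wild-type cells, and Ucp1 was too dim to be tested. Sums for 6 liver markers varied widely, 8.51 to 692 in knockout and 2.36 to 2048 in wild-type cells.

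**Figure D3:**
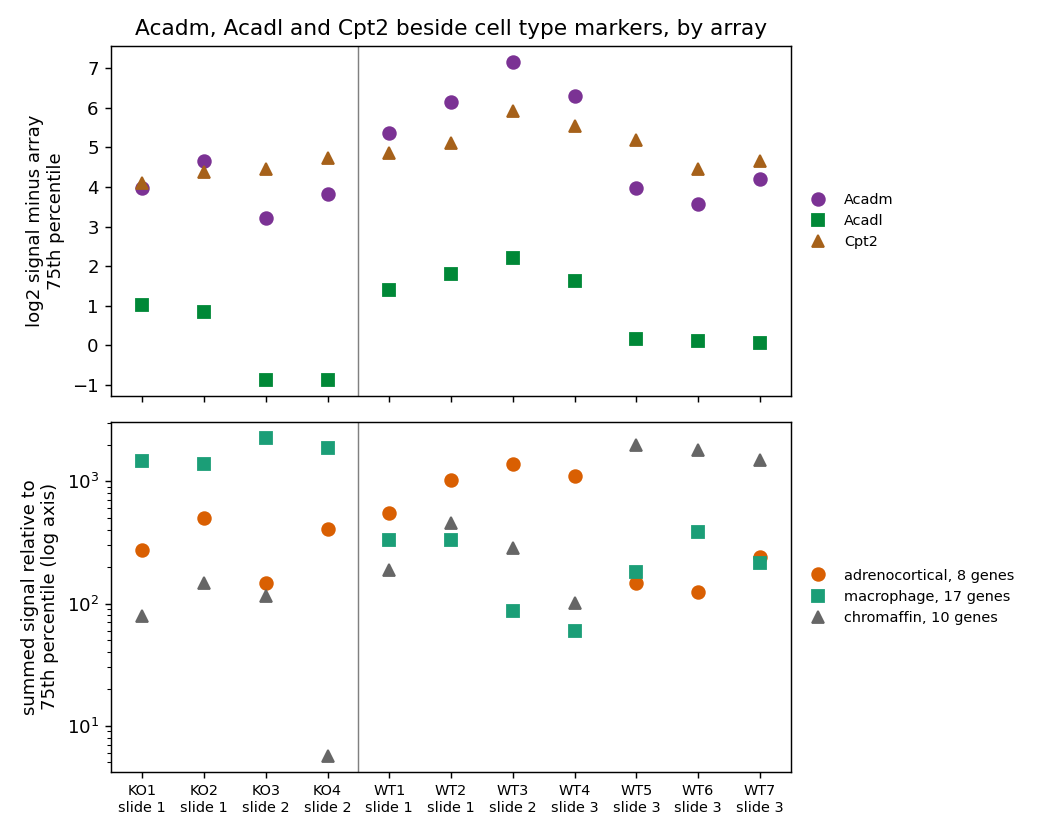
Upper panel: levels of Acadm, Acadl and Cpt2 (log2 signal minus the array's 75th percentile) on each array, knockout arrays at left. Lower panel: summed signal of adrenocortical, macrophage and chromaffin markers relative to the 75th percentile, on a log axis. Acadm is at 5.37 or above on WT1 to WT4, where the adrenocortical sum is 556 or more, and at 4.65 or below on all other arrays.

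The 5 genes whose centred levels over the 11 arrays were nearest to the mean centred profile of the 10 enzymes, by root mean square difference, were Psmb5 (0.136), Arpc5l (0.175), Zfyve21 (0.192), Il27 (0.195) and Glrx5 (0.210). Among the 10 themselves the distance from their mean profile ran from 0.378 for Hadha to 1.02 for Acads. The 5 genes were chosen as the nearest of all genes tested, so the distances of the 10 are not to be read against theirs.

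Genes around the pathway were described from lists of 67 further genes, of which 62 were tested. At an adjusted p under 0.05, 1 rose and 0 fell, where 0.603% of all genes tested rose and 0.231% fell. The median difference of the 62 was −0.25, beside −0.16 over all genes tested. The gene that rose was Pparg, a nuclear receptor that binds fatty acids and drives lipid storage genes in fat cells and macrophages. It was at 3.67, 3.74, 3.66 and 3.21 in knockout cells and between 0.37 and 1.91, with a median of 1.32, in wild-type cells. All knockout arrays were above all wild-type arrays, as they were for 4.12% of all genes tested. The difference was 2.42 ± 0.40 (95% interval 1.52 to 3.32, adjusted p = 0.0302), with 2.09 within slide 1 and 2.92 within slide 2. Without WT3 it was 2.09 with an adjusted p of 0.310, and macrophage marker sums were high on the same 4 arrays, whose part was not tested. Of the other regulators, Lpin1, a phosphatidate phosphatase that also acts as a nuclear coactivator, differed by 1.16 ± 0.37 (adjusted p = 0.160) and Ppara, the receptor best known for inducing β-oxidation genes in liver, by −1.44 ± 0.53 (adjusted p = 0.207). The 9 tested regulators had a median of 0.04.

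The other matrix enzymes of β-oxidation had 0 of 9 past the threshold and a median of −0.98. On both slides 7 of 9 were lower, where 37.5% of all genes tested were. Hsd17b10, a short-chain dehydrogenase, differed by −0.98 ± 0.29 (adjusted p = 0.139). Echs1, the short-chain enoyl-CoA hydratase, differed by −1.39 ± 0.43 (adjusted p = 0.147), and Acaa2, the matrix thiolase, by −1.18 ± 0.41 (adjusted p = 0.186). Hsd17b10, Acaa2 and Acad9 were each lower on every knockout array than on any wild-type array, as were 3.24% of all genes tested. The 3 genes Etfa, Etfb and Etfdh pass electrons from acyl-CoA dehydrogenases to ubiquinone. They differed by −1.15 ± 0.60, −0.73 ± 0.37 and −1.12 ± 0.42, with 0 of 3 past the threshold. All 3 were lower on both slides, beside 37.5% of all genes tested.

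Among 13 genes of general mitochondrial content, 0 passed and the median was −0.61. The fitted mean was lower in knockout cells for 12 of 13, beside 57% of all genes tested. Hspd1, the matrix chaperonin, differed by −1.82 ± 0.49 (adjusted p = 0.118), Sdha, a subunit of succinate dehydrogenase, by −1.45 ± 0.43 (adjusted p = 0.139) and Mdh2, malate dehydrogenase, by −0.94 ± 0.38 (adjusted p = 0.237). The summed signal of these 13 genes ran between 492 and 665 on knockout arrays, against 696 to 1901 on wild-type arrays, without overlap. Hspd1 and Mdh2 weigh most in that sum, at 9.87 and 8.96 on WT3. Each of these was lower on every knockout array than on any wild-type array, as were 3.24% of all genes tested. The groups overlapped for the rest of the 13.

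Of 8 tested acyl-CoA synthetases, which activate fatty acids before oxidation or esterification, 0 passed, with a median of −0.48. Acsm3, a medium-chain synthetase, differed by −3.95 ± 0.92 (adjusted p = 0.0851), Acsl4, which prefers arachidonic acid, by −2.24 ± 0.71 (adjusted p = 0.155), and Slc27a1 by −1.35 ± 0.62 (adjusted p = 0.280). Fatty acid uptake and binding genes had 0 of 4 past the threshold and a median of 1.19. Lpl, the lipase of lipoprotein triglycerides, differed by 2.86 ± 0.64 (adjusted p = 0.0771) and Cd36, a fatty acid and lipoprotein receptor, by 1.34 ± 0.46 (adjusted p = 0.179). Both were above all wild-type arrays on every knockout array, as were 4.12% of all genes tested. Both are also made by macrophages, whose marker sums were high on the knockout arrays and whose part was not tested.

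The remaining lists had 0 genes past the threshold: 5 of other carnitine handling (median 0.47), 8 of malonyl-CoA and fuel choice (−0.85), 5 of ketone body metabolism (0.57) and 11 of peroxisomal oxidation (−0.08). Crot, the peroxisomal carnitine octanoyltransferase, differed by −0.79 ± 0.34 (adjusted p = 0.254), and Ucp2, a carrier of the inner membrane, by 2.35 ± 0.74 (adjusted p = 0.152). Acat1, the mitochondrial acetoacetyl-CoA thiolase, differed by −1.28 ± 0.40 (adjusted p = 0.149), and Abcd3, a peroxisomal transporter of acyl-CoA, by −1.08 ± 0.37 (adjusted p = 0.175). Ucp2 was higher on every knockout array than on any wild-type array, as were 4.12% of all genes tested. Acat1, and Prkaa1 of the fuel choice list, were lower on every knockout array than on any wild-type array, as were 3.24%.

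**Figure D4:**
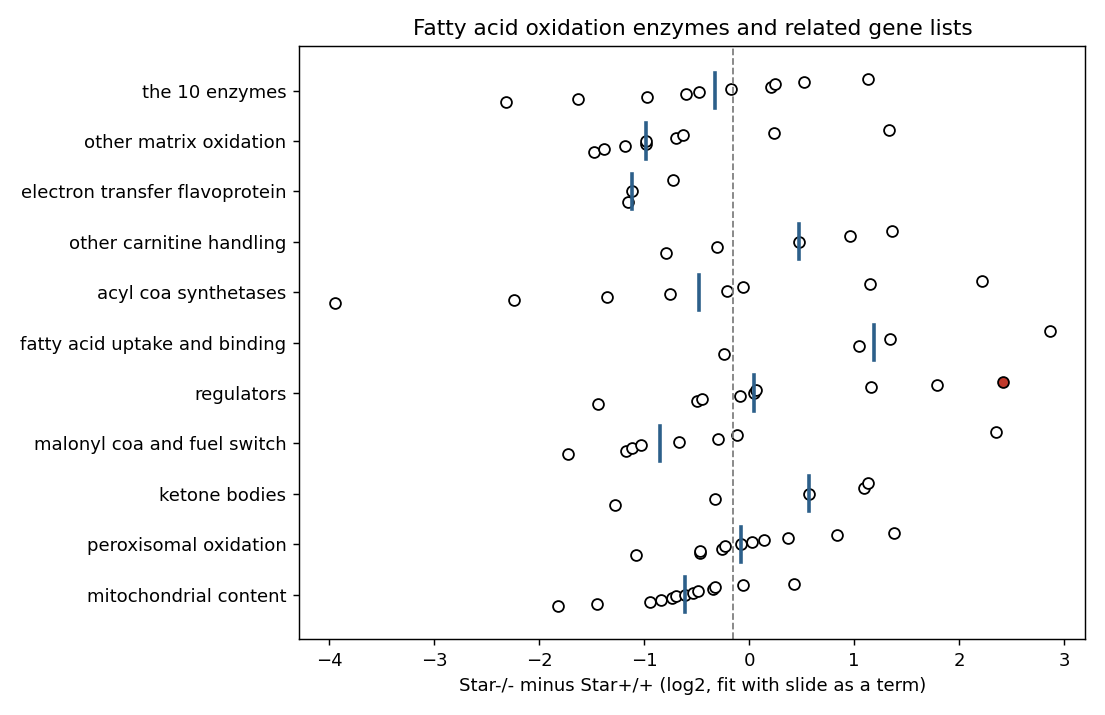
Fitted difference Star-/- minus Star+/+ (log2) of each tested gene (circles) in the 10 enzymes and 10 related lists, with a bar at each list's median and a dashed line at −0.16, the median of all genes tested. The filled circle is Pparg, the one gene past the threshold. The medians run from −1.12 for the electron transfer flavoprotein genes to 1.19 for fatty acid uptake and binding.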

How the data were processed

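The labels gave each array's genotype, sex, age and replicate number, and the scanner files its slide. The deposited scanner files hold spot intensity from Agilent Feature Extraction, whose processed signal has the background removed, per the file headers. Slides 1 and 2 were read with version 10.1.1.1 and slide 3 with 10.5.1.1, per the same headers; the submitters' processing notes list just 10.5.1.1. A series table by the authors was deposited as log2 values. Its entries were compared with levels made as here but with the outlier spots described below kept, less each probe's median over the arrays. They were equal within 0.01 for 99.8% of probes on each array.

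Of 45018 spots per array, 43379 were not controls, and 77 to 164 outlier spots per array were left out. Spots of a probe were averaged as log2 signal, and the 75th percentile over 41174 probes was subtracted. Probes were named through their accession and a RefSeq table (GRCm38.p6), and promoter windows, with their coordinates, come from RefSeq tables of that build. No coordinate of the files, whose headers name mm8 or mm9, was set against them. A gene was taken from its brightest probe and tested where 4 or more of the 11 arrays had it well above background. The test was limma 3.58.1 (R 4.3.3) with lmFit and eBayes on genotype plus slide, with 7 residual degrees of freedom, two-sided, with Benjamini-Hochberg adjustment over 20739 genes and unnamed probes and a threshold of 0.05. The fit was tested on simulated data. The number of arrays limits the precision.

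The members, lists and tests were chosen with earlier results of these data known. Genes named are the 10 members, Star, from each further list those past the threshold or up to 3 with the smallest p, and the 5 nearest in profile. Lpin1, Ppara, Acad9, Fdx1, Hsd3b1, Mc2r, Cyp21a1 and Fdxr were named in addition after their values were seen. Alternatives concerned slide, sex, replicate number, background, scaling, filter, probes, source of values, weights, outlier spots and single arrays. Those for Pparg and Star were added after seeing the data. Replicate numbers were not taken as pairs: same-numbered arrays had correlated deviations of 0.182, 0.218, −0.0077 and 0.185.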

Additional observations from a re-analysis of the deposited data

Results flagged for a closer look

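Acadvl on WT3, at 3.95, stood further below the other 6 wild-type arrays than Dixon's 95% critical value allows for 7 samples, with a gap to the nearest array of 0.707 of the group's range. It was the 1 value picked out among 22 groups tested, where chance picks out about 1 in 20. WT3 also had the lowest 75th percentile of signal, 115, and correlated least with the rest (median 0.877). Without it the Acadvl difference was −0.37. The part of array quality in it was not tested.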

How the results depend on the processing

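The count of the 10 enzymes past the threshold was 0 in 25 of 26 alternatives and 0 in each fit that left out 1 array. With array weights it was 2, both lower: Acadm at −1.73 (adjusted p = 0.0284) and Cpt2 at −0.83 (adjusted p = 0.0465), where 9.26% of all genes were past it, 4.23% as lower. Those weights ran from 0.17 for WT3 to 4.70 for KO1. The median over the 10 stayed below 0, between −0.49 and −0.16, and between −0.40 and −0.22 when 1 array was left out. Cpt1a, Cpt2, Acadl and Acadm were lower under all 26 alternatives, but with every probe fitted separately the 2 Cpt1a probes differed in sign, at −0.48 and 0.17, and −0.16 is their median. Over these, Acadm's adjusted p ran from 0.0284 to 0.933.

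The direction of the other 6 turned under some settings. With slide 1 alone the differences were −0.12 for Slc25a20, −0.37 for Acadvl, −0.23 for Acads, −0.13 for Hadha and 0.22 for Hadhb. The fit without WT3 gave the same differences with other errors. With array weights they were −0.063, −0.30, −0.049, −0.031 and 0.011 for the same genes. Acadvl was at −0.39 with no slide term and at −0.10 with slide as a random block, and Slc25a20 at −0.13 after normexp background correction. Hadh was at 0.53 on slide 2 alone. When 1 array was left out the ranges were −0.12 to 0.77 for Slc25a20, −0.37 to 0.42 for Acadvl, −0.23 to 1.70 for Acads, −0.13 to 0.38 for Hadha, −0.94 to 0.22 for Hadhb and −0.64 to 0.083 for Hadh. The cause was not tested.

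With the replicate number as a block in place of slide, 0 of the 10 passed, the median was −0.49 and Acadvl was at −0.085. Slc25a20 had no value when all 11 arrays had to be well above background. Star stayed lower under all 26 alternatives, with differences between −5.20 and −3.38, and was past the threshold in 8, with an adjusted p between 0.00241 and 0.512 (0.0240 with the replicate block). Pparg stayed higher under all 26 alternatives and past the threshold in 14, with an adjusted p between 0.00204 and 0.310. The count over all genes, 173, ran from 0 on either slide alone (3857 and 7482 at an unadjusted p under 0.05) to 1920 with array weights, and from 10 without WT3 to 565 without WT4.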
